A study of Mus musculus with 4 samples.

Results

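The cells described here were splenic CD4 T cells that held the transcript of the activation factor Irf4 and, in the same cell, still held the transcript of Klf2, a factor of resting T cells. They were chosen by their own counts of these 2 genes and of a few others. A member was a barcode with at least 2000 UMIs (unique molecular identifiers, 1 per captured transcript), at least 500 genes, at most 10% mitochondrial UMIs and at least 1 UMI of Cd3e, Cd3d or Cd3g, which also had at least 2 Klf2 UMIs and at least 2 Irf4 UMIs. Cells with Foxp3 or Zbtb16 UMIs, with 2 or more Egr3 UMIs or with 3 or more UMIs of S100a4 and S100a6 together were left out. There were 2208 such cells among 15246 cells of the gate and 19100 barcodes past the depth filters. They are called Klf2-retaining cells below. The gate without the Klf2 and Irf4 rules also held 6566 Irf4 cells with no Klf2 UMI, called Klf2-lacking cells, 1546 Irf4 cells with exactly 1 Klf2 UMI, and 2819 cells with at least 2 Klf2 UMIs and no Irf4 UMI. The gate itself removed 254 of the 2462 T cells with 2 UMIs of both factors, of which 149 failed on Egr3, 91 on Foxp3, 12 on Zbtb16 and 4 on S100a4 and S100a6, with some failing on several.

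The cells came from spleens of C57BL6/J mice that were wild type or carried a homozygous Irf5 deletion (Irf5-/-), per the labels. CD3+CD4+ T cells were sorted and kept for 6 h at 37 °C in RPMI with fetal bovine serum with Dynabeads that carried anti-CD3 and anti-CD28, and each suspension was made into a 10x Single Cell 3' library. There were 4 libraries, 1 female and 1 male under each label, and every library was stimulated, so no unstimulated sample enters any comparison. The labels do not give the ages of the mice, the number of mice in a library, a batch or a date. Groups of values below are in the order female labelled knockout, female labelled wild type, male labelled knockout, male labelled wild type. The p-values and SEs of single genes rest on a spread between these libraries that the fit pooled in part over genes. They can thus be smaller than the spread of a gene's own libraries would give, and part of that spread may be technical.

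Klf2 is a zinc-finger transcription factor of naive and resting T cells. It drives genes that let T cells leave and enter lymphoid organs, among them S1pr1, the receptor for the egress signal sphingosine 1-phosphate. Signals from the T cell receptor and PI3K-Akt turn Klf2 down, in part by moving its activator Foxo1 out of the nucleus. Irf4 is an interferon regulatory factor that T cells switch on in proportion to the strength of receptor signalling, and it supports clonal expansion and effector functions. A cell with both transcripts therefore holds a marker of each state.

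Klf2 lies on chr8:72319033-72321656 on the plus strand (GRCm38) and Irf4 on chr13:30749226-30766976 on the plus strand. The stretch before the start of Klf2 is shown because Klf2 transcript defines the cells. It is the 221 bases at chr8:72318812-72319032, plus strand, of the RefSeq promoter table on GRCm38.p6.

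Klf2 upstream: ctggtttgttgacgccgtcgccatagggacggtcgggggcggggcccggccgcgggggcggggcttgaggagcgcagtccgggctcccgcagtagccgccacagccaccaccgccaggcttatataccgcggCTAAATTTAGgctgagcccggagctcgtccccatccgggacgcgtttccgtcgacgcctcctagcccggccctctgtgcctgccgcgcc

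The capitals mark the 1 match to CTA, any 4 bases and TAG. This is a loose form of the site of MEF2 factors, which are known to drive Klf2 in endothelial cells. The pattern reads the same on both strands, and the match starts 89 bases before the gene start. The same loose pattern was present in 938 of 32851 windows of this length before gene starts, or 2.86%. These libraries hold no measurement at this stretch.

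The Irf5 transcript, which should be lower in the libraries labelled knockout, went against the labels in these cells. Klf2-retaining cells had 6.24, 1.98, 9.47 and 0.744 CPM of Irf5 (CPM are the UMIs of a gene scaled to 1000000 UMIs of the summed cells), from 27, 4, 69 and 5 UMIs. Both libraries labelled knockout were above both labelled wild type, so directions of genotype below are those of the labels only. A 3' count may also lie outside the deleted stretch, which the labels do not locate. The libraries held 28841161 to 55850754 UMIs. The female library labelled wild type stood apart, with 195 of the 2208 cells and 36.2% of its UMIs in droplets of under 200 UMIs, against 8.62% to 14.7% elsewhere. Pairs of libraries shared 1 to 8 barcodes among gated cells, and 1 barcode was a Klf2-retaining cell in both male libraries.

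Most markers matched the label of CD4 T cells. Of the 8 T cell markers, 3 were read by the gate. The other 5, Trac, Trbc2, Cd4, Lat and Thy1, summed to 1729 to 1954 CPM in Klf2-retaining cells against 1774 to 1956 in Klf2-lacking cells, and Cd8a was at 0 in Klf2-retaining cells. A Cd4 UMI was present in 24.9% to 36.8% of them. B cell markers summed to 328.5 CPM in the female library labelled knockout, where 6 of 8 had a UMI, but to 40.6, 37.5 and 47.2 CPM in the other libraries, against 38.6, 34.8, 28.2 and 29.3 CPM in Klf2-lacking cells. In that library Igkc reached 272 CPM and Cd79a 17.1 CPM, with Ms4a1 at 0 in all 4. The CD8 list summed to 12.3, 8.42, 10.6 and 9.38 CPM against 7.59, 6.99, 6.36 and 6.40 CPM, higher in Klf2-retaining cells in every library. The myeloid list summed to 28.7 to 39.7 against 28.2 to 35.7 CPM, the NK and gamma-delta list to 4.53 to 14.9 against 4.60 to 9.35 CPM and the erythroid list to 3.01 to 20.3 against 3.10 to 17.8 CPM. Between these groups, in the test described below, Igkc (3.24), Ighm (0.80), Cd8b1 (0.56), Trdc (0.71) and Cst3 (0.22) passed as higher in Klf2-retaining cells, so markers of other cell types moved with the group. Their part in the results was not tested beyond the setting without cells that held a UMI of another cell type, where 3887 genes passed between these groups. The memory list summed to 95.1 to 123.5 against 112 to 141 CPM, the innate-like list, in which Icos counts, to 189 to 300.3 against 223 to 324 CPM, and the regulatory T cell list, in which Il2ra counts and Foxp3 was gated out, to 321 to 373 CPM against 411 to 489 CPM in Klf2-lacking cells.

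Doublet scores and depth per cell moved with the group, and their part in the results below was not tested beyond the settings given with them. Barcodes with a high doublet score made up 14.2%, 3.08%, 15.9% and 10.0% of Klf2-retaining cells, against 4.43%, 1.66%, 3.21% and 2.69% of Klf2-lacking cells, and at most 0.535% of Klf2 cells without Irf4. Median UMIs per cell were close between Klf2-retaining cells (6444.5, 9999, 8425 and 11001.5) and Klf2-lacking cells (6131, 9917, 8071 and 11407), but far lower in Klf2 cells without Irf4 (3334, 5521, 4343 and 5995.5). Free RNA also held both transcripts, at 167 to 197 CPM for Klf2 and 541 to 626 CPM for Irf4. As a background measure, 0 of 31 erythroid cells reached 2 UMIs of either factor, which allows a share of up to 9.68%, at a median of 17587 UMIs against 8390.5 in Klf2-retaining cells. Intervals and floors given here cover counting error only.

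Klf2-retaining cells made up 19.3% to 23.6% of the Irf4 cells of a library. By library they were 19.6% (exact 95% interval 18.2 to 21.0), 19.3% (16.9 to 21.9), 23.6% (22.2 to 25.1) and 21.5% (20.0 to 23.1) of gated cells with at least 2 Irf4 UMIs. The male libraries were above the female ones, and the labels overlapped. With every cell thinned to 2000 UMIs and 1 UMI of each factor required, the shares were 22.4%, 20.4%, 20.9% and 16.7%, so that the female libraries were above the male ones within each label and the labels did not overlap (difference 3.14 percentage points, exact permutation p = 0.333). Without thinning, the mean share was 21.6% ± 2.88 under the knockout label and 20.4% ± 1.55 under the wild-type label (SD, n = 2 each), a difference smaller than either SD (exact permutation test, two-sided, p = 0.667, where 0.333 is the smallest p that 2 against 2 can give). As a share of the whole gate they were 12.9%, 13.5%, 15.7% and 15.3%. Irf4 cells of any Klf2 level were 66.0%, 69.9%, 66.3% and 71.0% of the gate, lower under the knockout label in both sexes (66.2% ± 0.191 against 70.4% ± 0.812, SD, n = 2 each; exact permutation p = 0.333, the smallest possible). The libraries labelled knockout were also shallower, at median depths of 5104.5 and 6741 UMIs per cell against 8416 and 9661. With cells thinned to 2000 UMIs, a step added after seeing the data, these shares were 55.6%, 56.2%, 52.6% and 53.5%, a difference of -0.757 percentage points, smaller than the SD within either label (2.12 and 1.92; exact permutation p = 0.667).

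The genes that chose or named the cells are given as a description. Klf2 was at 584, 454, 484 and 449 CPM in Klf2-retaining cells, against 1152, 886, 1082 and 1072 CPM in Klf2 cells without Irf4. Both groups were required to hold 2 Klf2 UMIs, and cells without Irf4 had fewer UMIs in all, so nothing is read from that difference. Irf4 was at 837, 806, 821 and 710 CPM, close to the 902, 823, 852 and 776 CPM of Klf2-lacking cells. The median cell held 3 or 4 Klf2 UMIs and 5 to 7 Irf4 UMIs.

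Ccr7, the receptor that guides T cells into lymph nodes, was at 613, 581, 462.5 and 530 CPM in Klf2-retaining cells. It was at 396, 352, 308 and 332 CPM in Klf2-lacking cells and at 306, 250, 192 and 233 CPM in Klf2 cells without Irf4. Klf2-retaining cells were thus the highest of the 3 groups in all 4 libraries, with log2 differences of 0.60 and 1.23. Trat1, an adaptor that stabilises the T cell receptor complex, went from 112 ± 28.4 CPM in Klf2-lacking to 201 ± 46.7 in Klf2-retaining cells and 260 ± 74.6 in Klf2 cells without Irf4 (SD, n = 4). Pim2, a kinase that supports survival and growth, was at 30.9 ± 7.67, 60.2 ± 5.69 and 65.2 CPM in the same order. No test is given for these 3 genes in these contrasts, because they named the cells.

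The first question was how Irf4 cells with Klf2 differed from Irf4 cells without it. UMIs were summed per library and group and compared with edgeR's quasi-likelihood test with library as a block, and Benjamini-Hochberg adjusted p-values under 0.05 were called. In all, 4756 of 9701 genes tested passed (49.0%), 2408 higher (24.8%) and 2348 lower (24.2%) in Klf2-retaining cells. Most changes were small, with a median size of 0.37 on the log2 scale among called genes and 536 genes past 1. A list is read below against these shares and the median log2 fold change of all genes, 0.01. The differences compare sums, in which fewer cells with a transcript and less transcript per cell cannot be told apart.

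Genes of recirculation and lymph node homing were the list with the largest shift. Of 12 genes, Klf2 and Ccr7 named the cells and 10 were tested, of which 9 rose in Klf2-retaining cells and 1 fell, with a median log2 fold change of 1.73. S1pr1 (chr3:115710433-115715072, minus strand) was at 33.8, 27.7, 30.1 and 37.5 CPM in Klf2-retaining cells, against 4.60, 4.46, 3.07 and 1.58 CPM in Klf2-lacking cells. All 4 Klf2-retaining sums were above all 4 of the other group, and the log2 fold change was 3.35 ± 0.146 (SE; edgeR adjusted p = 1.44e-28). It stayed far below its level in Klf2 cells without Irf4, 307 ± 12.4 CPM (SD, n = 4).

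The other receptors and integrins of the list moved less. Klf3, a related zinc-finger factor, rose by 1.57 on the log2 scale, from 22.6 ± 4.77 to 67.0 ± 10.1 CPM (SD, n = 4). The integrin subunits Itgb7 and Itga4, which pair for gut homing, rose by 2.28 and 1.65, and S1pr4, another sphingosine 1-phosphate receptor, by 1.80. Emb, a membrane glycoprotein, rose by 0.71 and the chemokine receptor gene Cxcr4 by 0.94, the latter between 2.39 and 4.51 CPM. The exception was Itgal, the integrin chain of LFA-1, which fell by 0.32, from 79.0 to 65.4 CPM, and was lowest in Klf2 cells without Irf4 at 36.2 CPM.

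The S1pr1 transcript was found in some of the cells only. A UMI of S1pr1 was present in 13.9%, 12.8%, 14.96% and 21.1% of Klf2-retaining cells, against 2.28%, 3.77%, 2.35% and 1.44% of Klf2-lacking cells and 58.3% to 73.5% of Klf2 cells without Irf4. When every cell was thinned to 2000 UMIs, S1pr1 was found in 5.81% ± 0.914 of Klf2-retaining, 0.736% ± 0.183 of Klf2-lacking and 43.4% ± 1.12 of Klf2 cells without Irf4 (SD, n = 4; 15.7%, 2.46% and 67.4% before thinning). It was found in 0 erythroid cells after thinning and in 16.1% of them before.

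Genes of naive T cell quiescence, a list that shares Klf2, Klf3 and Il7r with the one before, mostly moved the same way, with large changes in signalling brakes and small ones in several transcription factors. Of 25 genes, 24 were tested, and 17 rose, 5 fell and 2 did not pass, with a median log2 fold change of 0.83. Il7r, the receptor chain for the survival cytokine IL-7 (chr15:9505788-9530176, minus strand), was at 64.5, 60.4, 66.6 and 126 CPM against 8.18, 5.95, 10.2 and 7.37 CPM, a log2 fold change of 3.27 ± 0.105 (SE; edgeR adjusted p = 3.59e-35). Among Klf2-retaining cells the highest of these was the male wild-type-labelled library. Rasa3, a brake on Ras and Rap signalling, rose by 3.10, from 2.52 ± 0.773 to 22.6 ± 3.71 CPM. Pik3ip1, an inhibitor of PI3K, rose by 2.74, and Txnip, which limits glucose uptake, by 1.91. Ripor2, an inhibitor of RhoA, rose by 1.92 and Cdkn1b, which encodes the cell cycle inhibitor p27, by 1.53.

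The factors that keep T cells naive were less uniform. Tcf7, which encodes TCF1, was at 193, 188, 187 and 198 CPM against 84.9, 97.4, 86.4 and 90.5 CPM, with no overlap between the groups and a log2 fold change of 1.05 ± 0.0410 (SE; edgeR adjusted p = 6.11e-31). Its partner Lef1 rose by 0.76 and Ets1 by 1.38. Foxo1, the activator of Klf2, rose by 0.20, from 41.8 ± 5.74 to 49.0 ± 3.77 CPM, and Bach2 by 0.09, but they passed in only 11 and 4 of 16 alternative settings. Foxp1, Satb1, Btg1, Tob2 and Gimap5 fell, by 0.11, 0.12, 0.20, 0.34 and 0.32, and Btg2 and Tsc1 did not pass (0.07 and 0.06). The fall of Foxp1 was gone in cells up to the median depth, where its log2 fold change was 0.00.

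Interferon-stimulated genes, the antiviral and guanylate-binding genes that interferons switch on, were also higher. Of 20 genes, 19 were tested, 18 rose and none fell, with a median log2 fold change of 1.196. Gbp2 rose from 344 ± 95.4 to 917 ± 174 CPM, a log2 fold change of 1.39 (SD, n = 4). The antiviral genes Ifit3 and Oasl2 rose by 2.62 and 2.30 but stayed low, at 10.5 and 13.0 CPM. Isg15, a ubiquitin-like protein, rose by 0.38, and Isg20 did not pass at -0.25. Of the 19 genes, 18 were higher again in Klf2 cells without Irf4, with Gbp2 at 1864 CPM, and Bst2 did not pass there (-0.03). Outside the list, among the largest rises with at least 50 CPM, were Samhd1 (1.84), which limits the nucleotide pool, Ifngr1 (1.90), a chain of the interferon-gamma receptor, Sp100 (1.72), Dtx3l (1.70) and Iigp1 (1.56). Others among those rises were Kif1b, Fyb, Resf1, Lsp1, AW112010 and Kbtbd11, between 1.41 and 1.49 on the log2 scale.

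**Figure D1:**
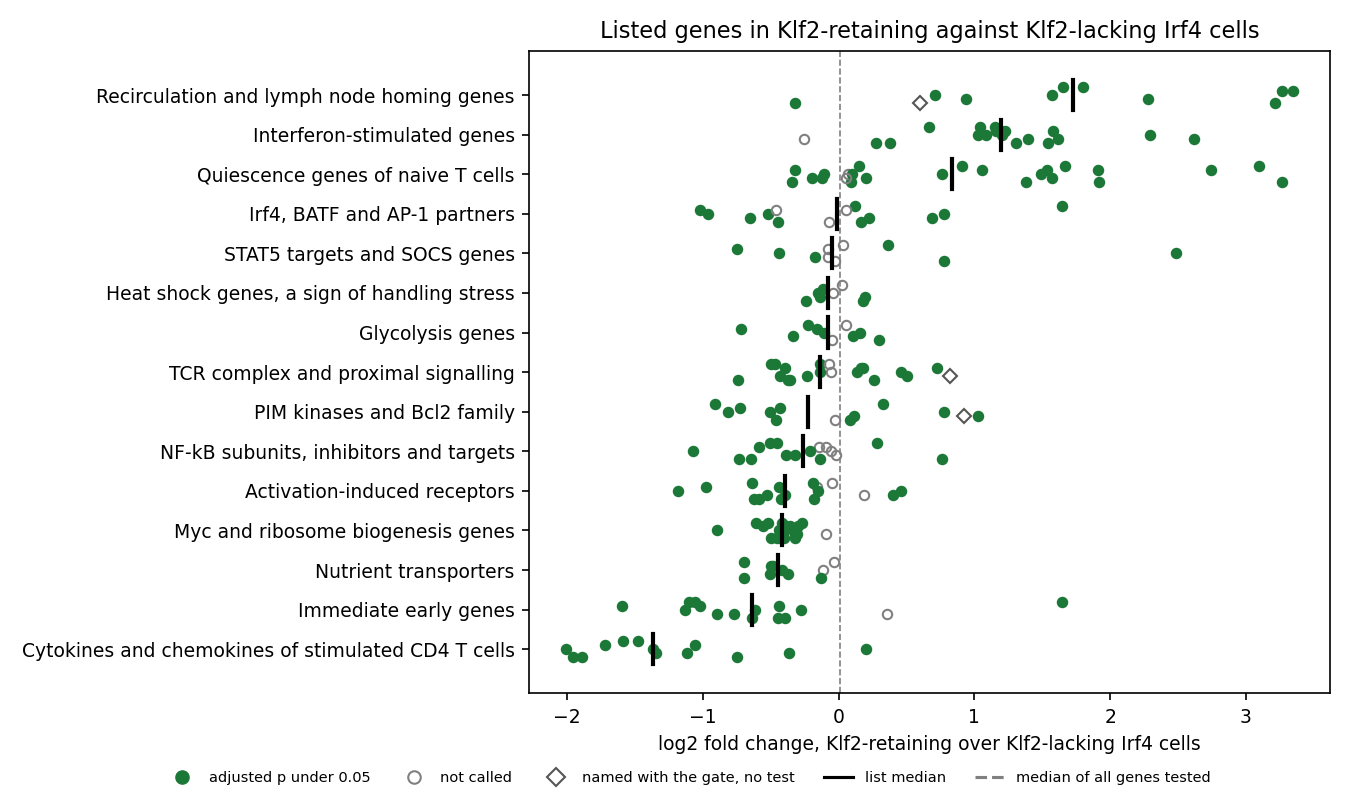
Log2 fold changes of the listed genes in Klf2-retaining over Klf2-lacking Irf4 cells (horizontal axis, from UMIs summed in 4 libraries), 1 point per gene and 1 row per list. Filled points passed an adjusted p of 0.05, open circles did not, diamonds are genes named with the cells and not tested, and black bars are list medians. Recirculation genes have the highest median, 1.73, and cytokines the lowest, -1.37.

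Immediate early genes, which T cells transcribe soon after receptor signalling, were mostly lower. Of 17 genes, 15 were tested, 13 fell, 1 rose and 1 did not pass, with a median log2 fold change of -0.64. Nr4a1, an orphan nuclear receptor used as a reporter of receptor signal strength (chr15:101254269-101274795, plus strand), was at 245, 275, 331 and 243 CPM against 602, 654, 564 and 535 CPM. The groups did not overlap, and Nr4a1 fell by 1.14 ± 0.0406 (SE; edgeR adjusted p = 1.06e-32). Its relatives Nr4a2 and Nr4a3 fell by 1.59 and 1.06, the zinc-finger factors Egr1 and Egr2 by 1.02 and 1.10, and Myc, the driver of growth, by 0.90. Egr3, another member of that family, was read by the gate. Cd69, an early surface marker that holds S1pr1 inside the cell, was at 957, 970, 1138 and 1115 CPM against 1531, 1606, 1571 and 1587 CPM, a log2 fold change of -0.64. Jun, an AP-1 subunit, went the other way and rose by 1.65, from 11.8 ± 5.22 to 36.7 ± 12.5 CPM, and was highest in Klf2 cells without Irf4 at 102 CPM. Fosb did not pass (0.36).

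Most of these genes were also above their level in cells with no Irf4, where Nr4a1 was at 24.6 ± 7.68 CPM, Myc at 20.2 ± 3.81 CPM and Cd69 at 115 ± 32.2 CPM (SD, n = 4). Of 14 tested against those cells, 13 were higher in Klf2-retaining cells and Jun was lower (-1.47). The distance was small for some, with log2 fold changes of 0.24 for Junb, another AP-1 subunit, 0.58 for Ier2 and 0.57 for Ier5.

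Cytokines and chemokines had the largest falls. Of 18 genes, 13 passed the filter on low counts, 12 fell and 1 rose, with a median log2 fold change of -1.37. The filter let in a gene that was high enough in either group of a comparison, as in every list. Genes let in by Klf2-lacking cells alone could hardly do other than fall, so the falls and the median are partly set by the filter. Against Klf2 cells without Irf4, 9 of the 18 passed it. Il2, the growth factor of activated T cells (chr3:37120523-37125959, minus strand), was at 34.4, 72.3, 36.0 and 57.3 CPM against 141, 101, 132 and 148 CPM. Each Klf2-retaining sum was below each Klf2-lacking sum, and Il2 fell by 1.59 ± 0.0790 (SE; edgeR adjusted p = 7.48e-26). The chemokine gene Ccl4 fell by 1.96, from 88.1 ± 34.5 to 23.4 ± 12.2 CPM, and Tnfsf11, which encodes RANKL, by 1.48, from 258 ± 33.3 to 95.3 ± 17.4 CPM (SD, n = 4). Cd40lg, the signal that T cells give B cells, fell by 1.35, Lta by 1.12 and Tnf by 1.06. Ltb, which encodes lymphotoxin beta and is made by resting T cells, rose by 0.20, from 284 to 337 CPM, against 862 CPM in Klf2 cells without Irf4. After thinning to 2000 UMIs an Il2 UMI was present in 3.85% of Klf2-retaining and 8.11% of Klf2-lacking cells, against 0.909% of Klf2 cells without Irf4.

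Receptors that activated T cells put on their surface moved less than cytokines. Of 17 tested, 12 fell, 2 rose and 3 did not pass, with a median of -0.39. Slamf1 fell by 0.98, the costimulatory receptors Tnfrsf4 (OX40) and Tnfrsf9 (4-1BB) by 0.62 and 0.53, and Il2ra, the high-affinity chain of the IL-2 receptor, by 0.44, from 375 ± 28.1 to 286 ± 19.9 CPM. Icos fell by 0.15 and passed in 11 of 16 alternatives. Pdcd1, which encodes PD-1, fell by 1.18 and was low in both groups, at 9.05 ± 1.80 and 3.97 ± 1.19 CPM. Cd28, the receptor engaged by the beads, rose by 0.46 ± 0.0374 (SE; edgeR adjusted p = 2.36e-16), from 171 ± 3.06 to 248 ± 15.9 CPM.

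Growth genes were mostly lower, by small amounts. Of 22 ribosome biogenesis genes, 21 fell and none rose, with a median of -0.41 and a range of -0.90 to -0.09, and of 10 nutrient transporters tested 8 fell and none rose, with a median of -0.45. Ncl, the nucleolar protein nucleolin, fell by 0.35, from 5119 ± 101 to 4159 ± 204 CPM, against 751 ± 111 CPM in Klf2 cells without Irf4. Npm1 fell by 0.30, Srm, which makes spermidine, by 0.50, and Odc1, the first enzyme of polyamine synthesis, by 0.61. Tfrc, the transferrin receptor, fell by 0.70 and the amino acid transporter Slc7a5 by 0.50. Cad, which starts pyrimidine synthesis, did not pass (-0.09). Glycolysis genes had no common direction, with 3 higher, 5 lower and 2 not passing of 10.

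Lists of signalling and survival genes were split. Of 16 NF-kB genes 10 fell and 2 rose, with Nfkbid down by 1.07 and the subunit Rel by 0.73, while Bcl3 rose by 0.76 and Tnip1 by 0.28. Of 19 tested genes of the T cell receptor and its proximal signalling, 10 fell and 7 rose. The kinase Zap70 fell by 0.47 and the receptor modulator Cd5 by 0.50, while Skap1, an adaptor for integrin activation, rose by 0.72. Of 12 tested genes of the PIM and Bcl2 families, 5 rose and 6 fell. The anti-apoptotic genes Bcl2 and Mcl1 rose by 0.78 and 0.33, and Bcl2a1b and Bcl2a1d, which NF-kB induces, fell by 0.73 and 0.91. Bbc3, which encodes the pro-apoptotic protein PUMA, rose by 1.03 ± 0.0951 (SE; edgeR adjusted p = 3.06e-14), from 14.2 ± 2.09 to 31.0 ± 5.56 CPM, and was at 12.1 ± 3.34 CPM in Klf2 cells without Irf4.

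Transcription factors that work beside Irf4 did not move as a list, with 6 higher, 5 lower and 3 not passing of 14 tested. Batf, its AP-1 partner, rose by 0.16, a call kept in 6 of 16 alternatives, and Nfatc1 and Bcl6 fell by 0.52 and 0.65. The related factors Irf1 and Irf2 rose by 0.69 and 0.78, and Irf8 did not pass at 0.05. Of 10 STAT5 targets and SOCS genes, 3 rose, 3 fell and 4 did not pass. Socs3, an inhibitor of cytokine signalling, rose by 2.49, from 1.34 to 7.35 CPM, against 65.0 CPM in Klf2 cells without Irf4. Of 8 heat shock genes, listed as a sign of handling stress, 4 fell and 2 rose. The list summed to 9577 to 10662 CPM in Klf2-retaining cells, 10000.3 to 10820.5 in Klf2-lacking cells and 2602 to 2999 in Klf2 cells without Irf4. Against the last group, 7 of 8 rose in Klf2-retaining cells, with a median of 2.09. The groups shared their libraries, and the part of handling or of activation in these levels was not tested.

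**Figure D2:**
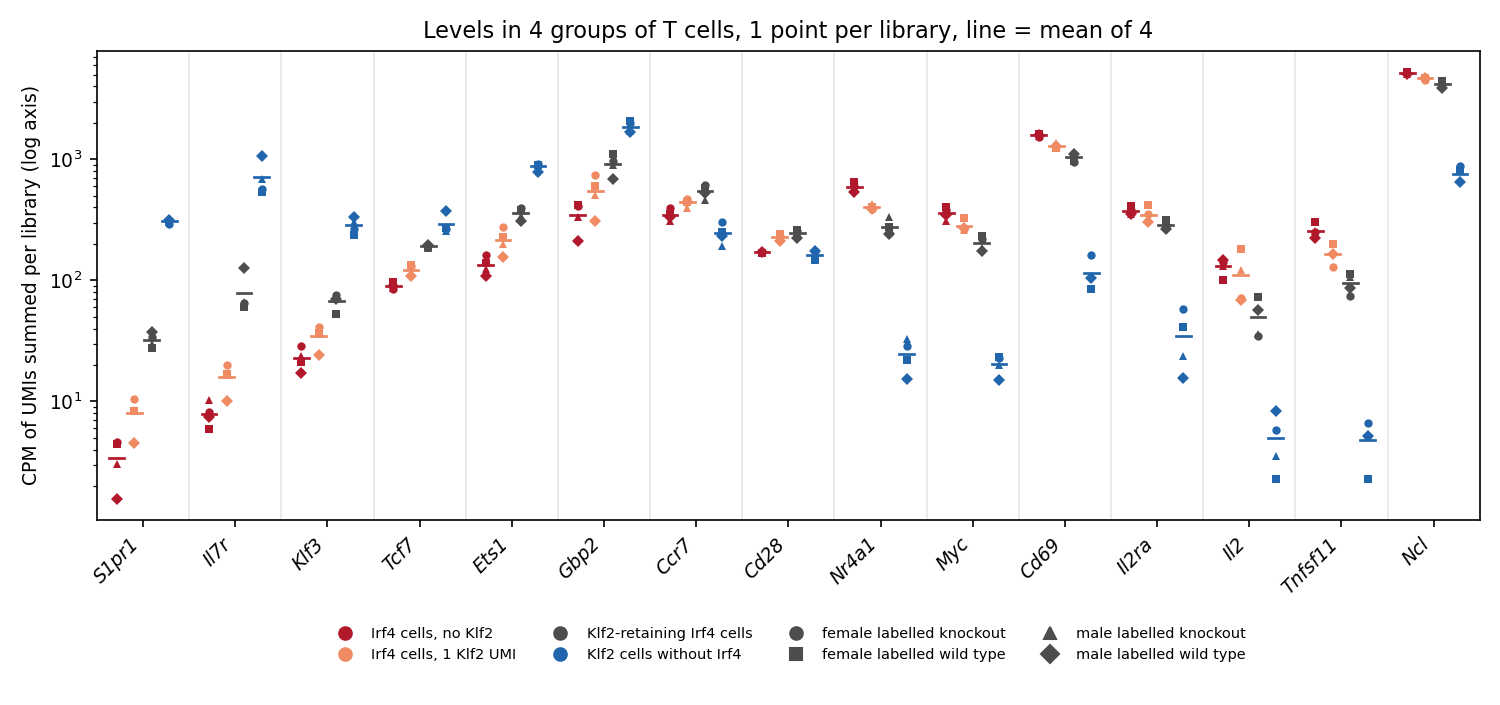
Level of 15 genes in 4 groups of T cells, as CPM of UMIs summed per library on a log axis, with 1 point per library and a line at the mean of 4. For S1pr1 the mean went from 3.43 CPM in Klf2-lacking cells to 32.3 in Klf2-retaining cells and 307 in Klf2 cells without Irf4, while Ccr7 and Cd28 were highest in Klf2-retaining cells.

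Without barcodes of high doublet score the log2 fold changes were 2.84 for Il7r, 3.06 for S1pr1 and -1.24 for Nr4a1.

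The members differed among themselves along the number of Klf2 UMIs. Of them, 742 held exactly 2 Klf2 UMIs, just inside the rule, 404 held 3 and 1062 held 4 or more. From cells with 0 and 1 Klf2 UMIs, just outside, to those with 2, 3 and 4 or more, mean S1pr1 went 3.43, 7.995, 10.6, 23.4 and 49.8 CPM. Tcf7 went 89.8, 122, 163, 169 and 219 CPM, and Ccr7 347, 439.9, 507, 539 and 577 CPM. Nr4a1 went down over the same steps, at 589, 403, 352, 300.2 and 212 CPM, as did Cd69 at 1574, 1290, 1163, 1028 and 975 CPM. The steps are a description with no test, and they show no break at the threshold of 2 UMIs. Median depth was similar across these bins of members, at 9136, 9082 and 8734 UMIs as means of the libraries.

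**Figure D3:**
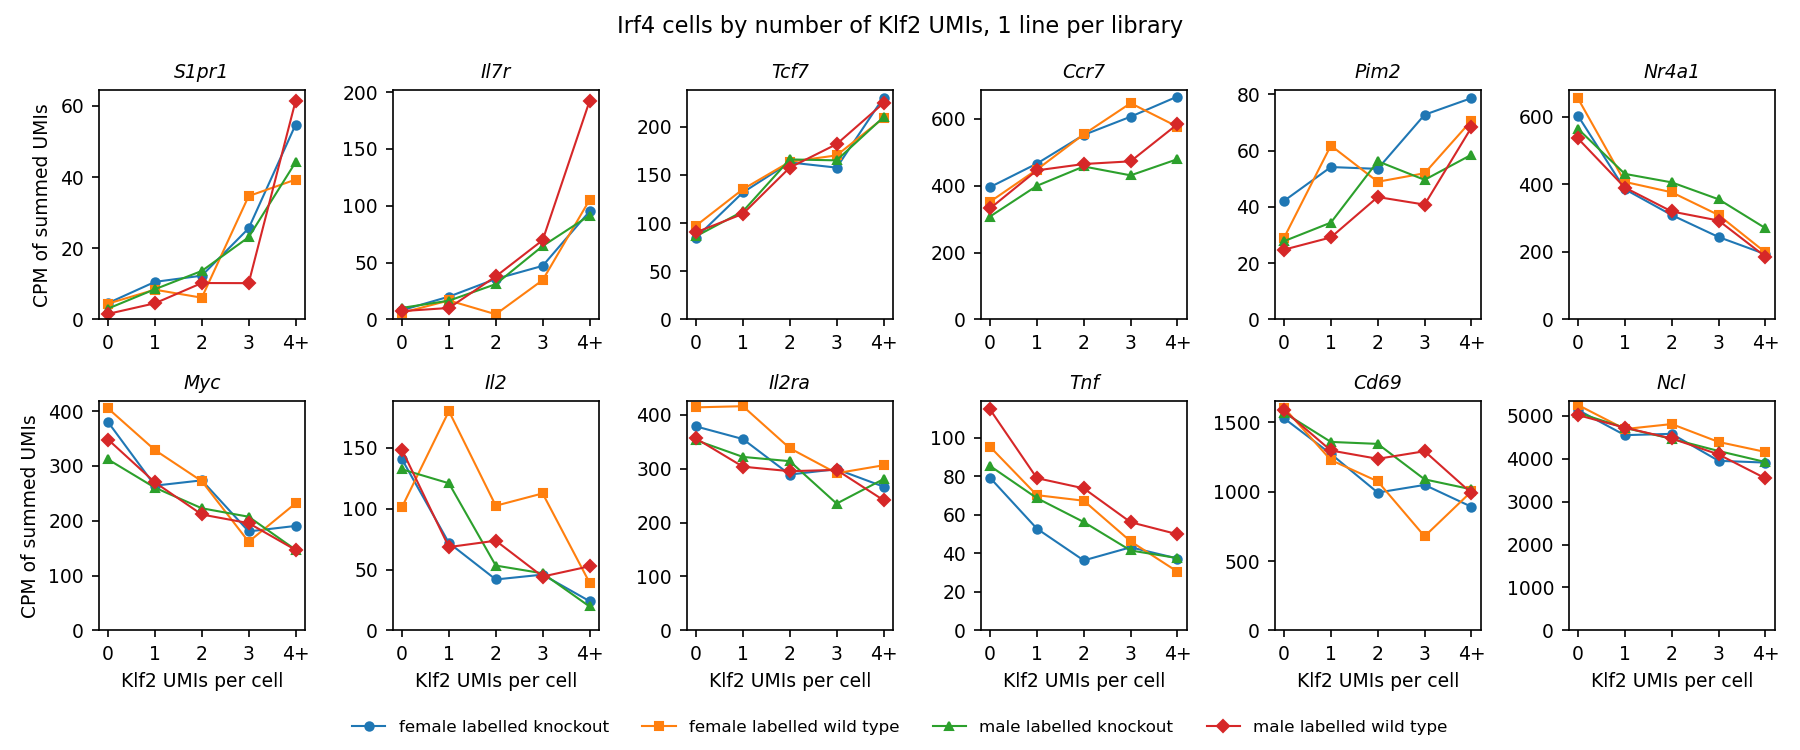
Level of 12 genes in Irf4 cells by number of Klf2 UMIs in the cell (horizontal axis), as CPM of summed UMIs, with 1 line per library. Homing and naive genes are higher with more Klf2 UMIs, as S1pr1 from 3.43 to 49.8 CPM, and Nr4a1 is lower, from 589 to 212 CPM.

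Along Irf4 the members ran the other way, with depth moving as well. In cells with 1 Irf4 UMI, outside the rule, and in members with 2, 3 to 4, 5 to 8 and 9 or more, mean S1pr1 was 227, 128, 48.4, 21.9 and 18.4 CPM. Il7r was 571, 353, 105, 51.0 and 41.5 CPM over the same bins, and Cd69 was 294, 554, 892, 1053 and 1206 CPM. Ccr7 was highest in the middle, at 345, 445, 561, 587 and 513 CPM. The mean over libraries of the median UMIs per cell went from 5335 to 6418, 7388, 9064 and 10617 over these bins, and the part of depth in the levels was not tested.

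The 354 members with an S1pr1 UMI and the 1854 without one had different levels of other genes that the split did not use, given here with no test. Il7r was at 304 CPM in the first and 36.9 CPM in the second, against 7.32 CPM in Klf2-lacking cells without such a UMI. Tcf7 was at 250.4 and 180.1 CPM, against 88.9 CPM, and Nr4a1 at 199.7 and 288 CPM, against 593 CPM. Ccr7 was higher in members without an S1pr1 UMI, at 572 CPM against 412 CPM in those with one and 346 CPM in Klf2-lacking cells without one. The 388 members with no Ccr7 UMI held 558 CPM of Nr4a1 and 1672 CPM of Cd69, against 227 and 944 CPM in the other 1820, and also more S1pr1, at 55.8 against 28.4 CPM. Their median depth was 7327 UMIs against 9242.5.

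The second question was where the members stood between Klf2-lacking cells and Klf2 cells without Irf4. Against the latter, 7419 of 9654 genes passed (76.8%), 3637 higher (37.7%) and 3782 lower (39.2%), with a median size of 0.96 on the log2 scale among called genes. The per-cell depth of these groups differed, and with depth-matched cells 4295 genes passed. The 2 comparisons share the Klf2-retaining sums, so their values are given side by side only.

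Among the rises, the lists with the highest medians were cytokines, ribosome biogenesis and immediate early genes. Of 22 ribosome biogenesis genes all 22 rose, with a median of 2.97, 13 of 14 immediate early genes rose, with a median of 2.95, and 8 of 9 cytokine genes rose, with a median of 3.15. Among the largest were Bcat1 (4.62), which starts branched-chain amino acid breakdown and was at 70.5 against 3.30 CPM, Spry1 (4.46), a brake on Ras signalling, Atf3 (4.25), a stress-induced factor, Shmt1 (4.11), an enzyme of one-carbon metabolism, and Mir155hg (4.04), the host gene of miR-155, at 179 against 11.9 CPM. Mettl1, Psat1 and Ctps rose by 3.98, 3.74 and 3.71, and Tfrc by 3.87.

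Among the falls, recirculation genes fell in 9 of 10 cases, with a median of -2.37, interferon-stimulated genes in 18 of 19, with a median of -1.93, and quiescence genes in 18 of 24, with a median of -1.42. S1pr1 fell by 3.17, Il7r by 3.12 and Tcf7 by 0.54. The largest fall was that of Ccl5, a chemokine of memory cells, by 3.83, from 74.9 to 5.30 CPM. Rflnb fell by 3.26, from 324 to 31.8 CPM, and St8sia6, a sialyltransferase, by 3.43, from 99.4 to 8.51 CPM.

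Members sat between the other 2 groups for many genes, at unequal distances. The level lay between them in all 4 libraries for 4106 of 9302 genes tested in both comparisons (44.1%), above both for 251 (2.70%) and below both for 68 (0.731%). For 734 genes at least 2-fold higher in Klf2 cells without Irf4 than in Klf2-lacking cells, the members had gone 16.3% of the way from Klf2-lacking to Klf2 cells without Irf4, as a median on the CPM scale with an interquartile range of 11.9% to 21.7%. For 1010 genes at least 2-fold higher in Klf2-lacking cells the median was 21.1%, with a range of 14.4% to 27.8%. Within the latter, 6 cytokine genes had a median of 67.7%, 9 immediate early genes 51.0%, 6 NF-kB genes 42.3% and 8 receptors 34.3%, but 22 ribosome biogenesis genes 24.6% and 6 heat shock genes 6.00%. Within the former, 8 recirculation genes had 10.6%, 16 interferon-stimulated genes 11.8% and 13 quiescence genes 16.3%. The lists thus ran from 6.00% to 67.7%.

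**Figure D4:**
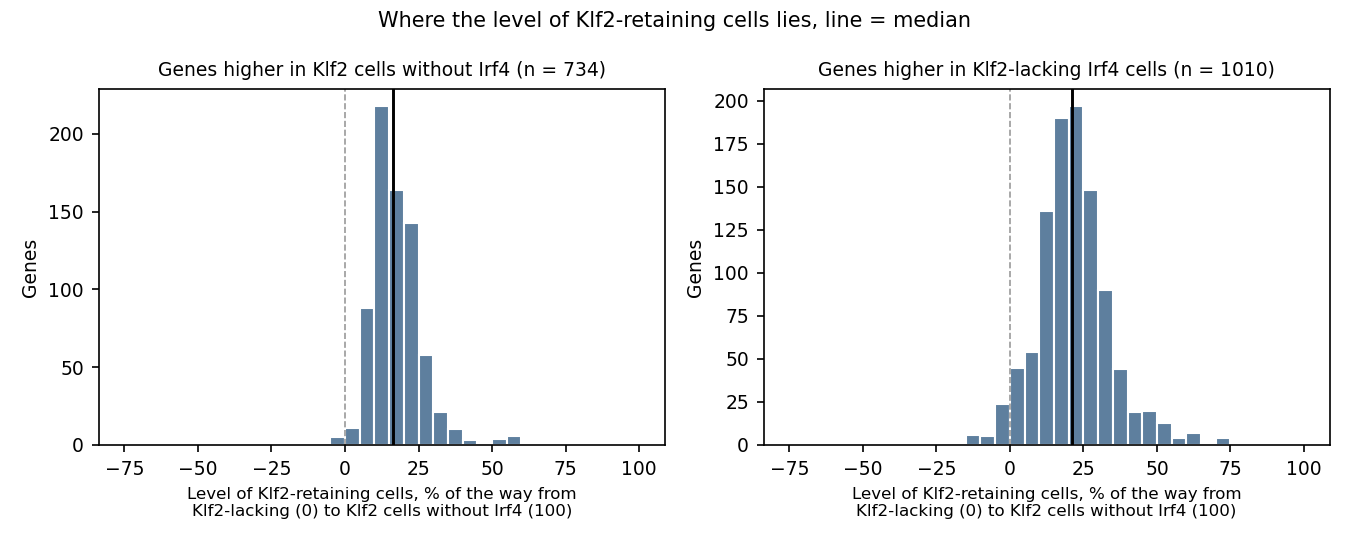
Histograms over genes of where the level in Klf2-retaining cells lies, in percent of the way from Klf2-lacking Irf4 cells (0) to Klf2 cells without Irf4 (100), from mean CPM of 4 libraries. The left panel holds 734 genes higher in Klf2 cells without Irf4, median 16.3%, and the right panel 1010 genes higher in Klf2-lacking cells, median 21.1%.

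A smaller set was highest in the members. In 42 of the 9302 genes the level was above both groups in all 4 libraries, at 50 CPM or more in the members. In these both tests passed where tests were run. The 251 genes above both (2.70%) were counted with no CPM floor and no test, so that share is not one for the stricter rule. Of the 42, those named here were chosen after their values were seen, except Ccr7, Cd28 and the survival genes Bax and Bcl2l11. Trp53inp1, a p53-induced regulator of autophagy, was at 206, 231, 189.5 and 175 CPM in members, 123 ± 5.21 CPM in Klf2-lacking cells and 102 ± 3.80 CPM in Klf2 cells without Irf4 (SD, n = 4), with log2 fold changes of 0.62 and 0.99. Myb, a factor of progenitor states, was at 147, 121, 142.5 and 142 CPM, against 98.9 ± 5.69 and 43.8 ± 5.17 CPM, with 0.43 and 1.77. Ccng1, which encodes cyclin G1, had log2 fold changes of 0.45 and 0.39, and Bax, a pro-apoptotic gene of the Bcl2 family, 0.09 and 1.26, the first of which passed in 7 of 16 alternatives. Cd28 was at 255, 262, 249 and 225 CPM in members and 162 ± 13.7 CPM in Klf2 cells without Irf4, a difference of 0.66, but with depth-matched cells that difference was 0.04 and did not pass. The difference of Ccng1 from Klf2 cells without Irf4 was -0.03 with depth-matched cells.

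The third question, that of the study, was whether the label Irf5 knockout or wild type changed these cells. With 2 libraries per label, sex as a covariate and 1 residual degree of freedom, 52 of 9622 genes passed (0.540%), 29 higher and 23 lower under the knockout label, and 427 had an unadjusted p under 0.05. DESeq2 called 2 genes, and 25 passed without cells that held a UMI of another cell type. Of the 15 lists, 10 had no gene called. S1pr1, with a difference of -0.17, was not among the called genes, and neither was Ccr7 at -0.13.

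Of the cytokine genes, 3 of 9 tested were lower under the knockout label and none higher. Il2 was at 34.4 and 36.0 CPM in the libraries labelled knockout and at 72.3 and 57.3 CPM in those labelled wild type, a log2 difference of -0.90 ± 0.136 (SE; edgeR adjusted p = 3.76e-08). It was lower in both sexes, and the labels did not overlap. In members up to the median depth of their library the difference of Il2 was 0.98, in the opposite direction, and DESeq2 gave -0.92 with an adjusted p of 0.752. In Klf2-lacking cells the difference of Il2 between labels was 0.04. Ccl4 was at 10.9 and 15.8 against 37.2 and 29.6 CPM, a difference of -1.29, and Lta at 19.2 and 20.6 against 30.7 and 32.7 CPM, a difference of -0.74. In Klf2-lacking cells the differences between labels were -1.04 for Ccl4 and -0.55 for Lta, given as a description. In the 10 alternatives with a test, Il2 and Ccl4 passed in 7 each and Lta in 5, and Ccl4 stood at -0.15 in members up to the median depth. Tnf did not pass.

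Interferon-stimulated genes had 2 of 19 tested called, both higher under the knockout label, with a list median of 0.23. Isg15 was at 54.3 and 43.1 CPM against 39.1 and 18.3 CPM, a difference of 0.84, and Ifit3 at 15.3 and 14.8 against 5.45 and 6.40 CPM, a difference of 1.22. Isg15 differed by 0.44 between the female and 1.13 between the male libraries. It passed in 6 of 10 alternatives and Ifit3, which ranged from 0.22 to 1.77, in 2. In Klf2-lacking cells the list median between labels was 0.59, with 3 genes past the same threshold, all higher under the knockout label. Over all genes of that comparison 36 of 10677 passed, 23 higher and 13 lower under the knockout label. Il7r differed by -0.60, but by 0.06 between the female and by -1.003 between the male libraries, so it rested on the male pair. Trat1 was at 249 and 208 against 208 and 137 CPM, a difference of 0.38 (edgeR adjusted p = 0.0442; 0.23 between the female and 0.51 between the male libraries), which passed in 3 of 10 alternatives.

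By the rule for named genes, 5 rises and 10 falls remained. Ide, an insulin-degrading protease, was at 110.5 and 109 CPM against 58.9 and 60.7 CPM, a log2 difference of 0.80 ± 0.118 (SE; edgeR adjusted p = 1.53e-08). Ncoa7 and Tubb4b were higher by 0.72 and 0.44. Gpr183, a receptor for oxysterols, was higher by 0.55, but by 0.22 between the female and 0.82 between the male libraries. Sp110, an interferon-induced nuclear body protein, was at 0 and 0.549 CPM under the knockout label and at 88.2 and 76.7 CPM under wild type. Arf5, Malt1, a scaffold of NF-kB signalling, and Eea1 were lower, with differences of -0.68, -0.49 and -0.44. A further 4 falls rested mostly on 1 sex. The pooled difference of Cxcl10 was -0.57, with -0.96 between the female and -0.24 between the male libraries, and that of Lars2 was -0.42, with -0.82 and -0.04. The pooled difference of Tent5a was -0.55, with -0.22 between the female and -0.80 between the male libraries, and that of Emb was -0.46, with -0.07 and -0.72. Igkc was the largest rise, at 3.82, and rested on the female library labelled knockout, at 272 CPM there and 4.25 CPM in the male one, against 7.43 and 2.98 CPM under wild type. It is an immunoglobulin gene and belongs with the B cell markers of that library given above.

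**Figure D5:**
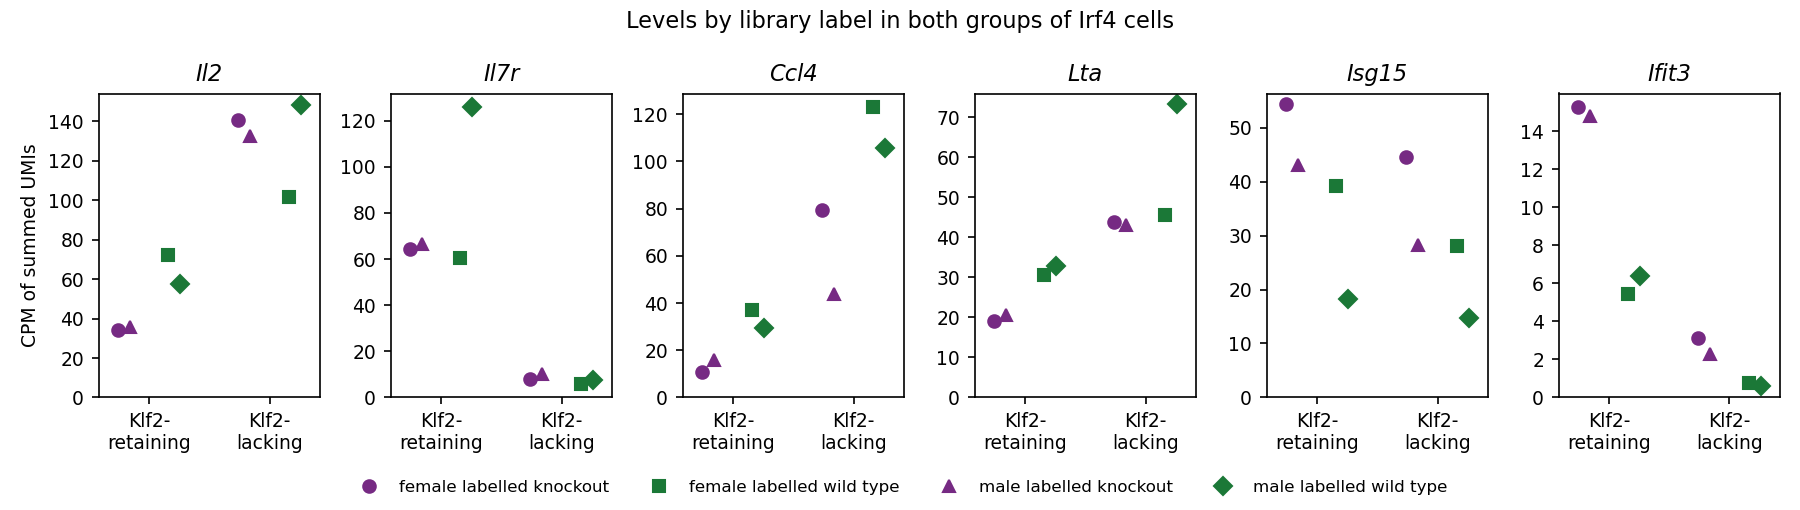
Level of 6 genes in Klf2-retaining and Klf2-lacking Irf4 cells, as CPM of summed UMIs, with 1 point per library, purple for the label knockout and green for wild type. In Klf2-retaining cells Il2 is at 34.4 and 36.0 CPM under the knockout label and at 72.3 and 57.3 CPM under wild type, and in Klf2-lacking cells the labels overlap.

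Whether the step from Klf2-lacking to Klf2-retaining cells differed between the labels was tested as an interaction over the 8 sums. It passed in 29 of 10157 genes (0.286%), 11 with a higher and 18 with a lower step under the knockout label, with 500 at an unadjusted p under 0.05, and DESeq2 called 0. Il2 fell from Klf2-lacking to Klf2-retaining cells by more under the knockout label, with log2 steps of -2.04 and -1.94 against -0.55 and -1.43, an interaction of -0.81, which went from -0.55 without the female to -1.43 without the male wild-type-labelled library. Il7r had steps of 2.93 and 2.61 against 3.24 and 3.995, an interaction of -1.10. In cells up to the median depth the interaction of Il2 was 1.60, in the opposite direction, and passed there too (edgeR adjusted p = 3.48e-07). Leaving out the male wild-type-labelled library left 10 genes and an Il7r interaction of -0.51, which did not pass, and leaving out the female knockout-labelled library left 15 genes.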

How the data were processed

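The authors deposited, for each of 4 libraries, raw UMI counts per gene and barcode for all barcodes, with no normalization, in a format written by Cell Ranger 4 per the file headers. The submitters' processing notes name Cell Ranger 6.0.2 and the build mm10. The annotation release and whether counting was stranded are not given in the sources used here, so genes that overlap cannot be told apart. The files held 32285 genes, of which 99.6% of identifiers matched GENCODE M21 on GRCm38, the source of coordinates.

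Cells were gated on raw UMIs as the report states, UMIs were summed per library and group, and the sums were tested with edgeR 4.0.16 (TMM scaling, filterByExpr, quasi-likelihood F test, Benjamini-Hochberg over all genes tested) in R 4.3.3, after a check on simulated counts. Library was a block between cell groups, and sex a covariate between genotype labels. The 10 genes read by the gate were not tested, and Ccr7, Trat1 and Pim2, which named the cells, are described without a p between cell groups. Printed CPM are plain, and log2 fold changes use TMM, which moved the first comparison by 0.053 and the second by -0.065 against plain CPM. Doublets were scored with scrublet in scanpy 1.11.5, and high scores are the top 0.8% per 1000 cells of a library. They were kept, and removed as an alternative. DESeq2 1.42.0 was another alternative.

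The members, the 15 gene lists, the 10 marker lists and the tests were chosen with earlier results of these data known. Named genes are the 15 largest rises and 10 largest falls among called genes that moved the same way in every library (every sex between labels) with at least 50 CPM in the higher group, and a few of these and of the listed genes are not reported here. Of the listed genes, 2 were absent from the files.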

Additional observations from a re-analysis of the deposited data

Results flagged for a closer look

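The interaction passed in 29 genes, and the 13 of them that are on the gene lists or named in another comparison are given here. For these the step from Klf2-lacking to Klf2-retaining Irf4 cells differed between libraries labelled knockout and wild type, by a test of the difference itself (edgeR interaction over 8 sums). The interaction is the log2 step under the knockout label minus that under the wild-type label. It was -1.10 for Il7r, -0.81 for Il2, -0.58 for Ifngr1, -0.63 for Dtx3l, -0.36 for Iigp1, -0.66 for Kif1b, -0.44 for Fyb, -0.39 for Ifi27l2a, -0.47 for Tent5a and -1.08 for Cnp. It was positive for Fos at 0.67, Csf2 at 2.11 and Igkc at 3.61. Of 13 alternatives, Il7r and Il2 passed in 10 each (Il2 in 1 of them, cells up to the median UMIs, in the opposite direction at 1.60). Iigp1, Ifi27l2a and Igkc passed in 8, Fyb and Csf2 in 7, Ifngr1, Kif1b and Cnp in 6, Dtx3l in 5, Tent5a in 4 and Fos in 2.

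The male library labelled wild type had the largest step in several of these. Without it the interaction was 0.0809 for Ifngr1, -0.0932 for Dtx3l, -0.0638 for Kif1b, -0.15 for Fyb, -0.23 for Ifi27l2a and -0.51 for Il7r, but -1.43 for Il2. Without the male library labelled knockout it was -0.15 for Tent5a, 0.42 for Fos and -5.23 for Csf2, and without the female one -0.15 for Igkc. Ifngr1 was at 33.4, 31.5, 26.0 and 16.6 CPM in Klf2-lacking cells, in the order used in the report, and at 89.7, 98.1, 98.1 and 103.7 CPM in Klf2-retaining cells. Csf2, the cytokine GM-CSF, was low in Klf2-retaining cells, at 0, 1.49, 4.94 and 1.19 CPM. Igkc followed the B cell markers of the female library labelled knockout.

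Within Klf2-retaining cells Il7r differed between labels by 0.0610 among females and by -1.003 among males, in opposite directions. The difference between the sexes was not tested.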

How the results depend on the processing

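Counts of called genes moved by more than 1.5 times in these settings. Klf2-retaining against Klf2-lacking cells went from 4756 to 2938 with DESeq2 and 2243 with cells thinned to 2000 UMIs. Against Klf2 cells without Irf4, 7419 went to 4295 at matched depth. Between labels, 52 went to 2 with DESeq2, 2 with thinned cells, 10 with at least 3 Irf4 UMIs, 25 without cells with UMIs of other types and 11 without sex. The interaction went from 29 to 0 with DESeq2, 9 with at least 3 Klf2 UMIs, 4 with at least 3 Irf4 UMIs, 12 with thinned cells, 58 in cells up to the median UMIs and 1 without cells with UMIs of other types. Leaving out 1 library gave 3841 to 4681, 6687 to 7373 and, for the interaction, 10 to 40 genes, and for the difference in share -0.884 to 3.19 percentage points. Between labels, leaving out 1 library leaves no residual degrees of freedom, so only values are given.

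Some named genes changed sign, from near 0 up to values past 1 for Il2 and Csf2. Against Klf2-lacking cells this was Foxp1 in cells up to the median UMIs (0.0016). Against Klf2 cells without Irf4, matched depth gave 0.16 for Pim2, 0.22 for Cd274, 0.19 for Birc3, -0.0292 for Ccng1, -0.0171 for Rex1bd, -0.0369 for Atp5k and -0.0513 for Txndc17. Cells up to the median UMIs gave 0.22 for Pim2 and -0.0724 for Tnfsf8, no filter 0.0181 for Pim2, and thinning -0.0073 for Trbc1. Between labels, cells up to the median UMIs gave 0.98 for Il2 and -0.35 for Igkc, at least 3 Irf4 UMIs -0.0070 for Igkc, and leaving out 1 library gave -1.003 to 0.0610 for Il7r. For the interaction, cells up to the median UMIs gave 1.60 for Il2 and -0.92 for Igkc, at least 3 Irf4 UMIs -0.55 and no cells with UMIs of other types -0.90 for Igkc, and at least 3 Klf2 UMIs -0.43 for Csf2. Leaving out 1 library gave -0.94 to 0.0809 for Ifngr1, -0.15 to 4.41 for Igkc and -5.23 to 2.70 for Csf2. The cause of these changes was not tested. Settings without cells with S1pr1 UMIs (3600 genes called against Klf2-lacking cells) or with UMIs of other types were chosen after seeing the data.

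Over single genes and settings, 3801 values kept their direction and call, 253 lost the call and 40 gained it against Klf2-lacking cells, with 1 reversed. Against Klf2 cells without Irf4 3764 kept both, 69 lost the call and 11 reversed. Between labels 193 kept both, 100 lost the call, 8 moved and 5 reversed, and for the interaction 86 kept both, 75 lost the call and 8 reversed. The labels carry no replicate numbers to use as a block. Samples were paired in other ways, by library between cell groups (3648 and 7138 genes without that block) and by sex between labels. In simulated counts of the comparison between labels, over 9622 genes, the test recovered 20.0% of genes changed by 0.5 on the log2 scale and 75% of those changed by 1.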

Other observations

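A few genes were singled out after their values in Klf2-retaining cells were seen, with no test. Mki67, a marker of cycling cells, was at 8.79, 0, 4.80 and 0 CPM in the order used in the report, Top2a, which untangles DNA in division, at 14.6, 5.45, 8.51 and 0.595 CPM, and Cenpf, a kinetochore protein, at 10.4, 0, 2.06 and 0 CPM. Igha, an immunoglobulin heavy chain, was at 194, 7.93, 0 and 0 CPM, so the highest sums of these 4 genes were all in the female library labelled knockout.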
